A study of Mus musculus with 11 samples.

Results

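Eif1a, 5 closely related Eif1a-like genes (Gm2016, Gm2022, Gm4027, Gm5662 and Gm8300) and the Trim43 genes Trim43a, Trim43b and Trim43c were followed in mouse embryos. They were taken by symbol and make up 9 of the 49585 rows of the expression table. All 9 reached at least 1 TPM (transcript abundance scaled by transcript length and library total) in at least 2 libraries, as did 21938 genes in all. RNA was sequenced from C57BL/6 embryos made by round spermatid injection (ROSI), in which the haploid precursor of a sperm is injected into an oocyte, or by intracytoplasmic sperm injection (ICSI), in which a mature sperm is injected. At the 2-cell stage there were 3 ROSI and 3 ICSI libraries, and at the zygote stage 2 ROSI and 3 ICSI libraries. Embryos of the ROSI groups spent 1 to 2 h in CZB medium free of calcium, with 5 mM of strontium chloride as the activating agent, before culture in KSOM. For the ICSI groups only KSOM is given, so the kind of male nucleus and the activation step cannot be told apart. Each library was prepared with a stranded SMART-seq kit, starting from 1 ng of RNA. The number of embryos per library and whether libraries came from separate injections are not given in the sources used here, so p-values measure only the spread between these libraries.

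eIF1A is a small protein that binds the small ribosomal subunit and helps the initiation complex scan a messenger RNA and settle on its start codon. In the mouse, the X-linked gene Eif1ax encodes the widely expressed form, and a multicopy family of Eif1a-like genes is transcribed in the 2-cell embryo, when the embryo's own genome is activated and maternal RNA is removed. Trim43 genes belong to the tripartite motif family, whose members typically carry a RING domain of ubiquitin ligases, and are known for transcription in the early embryo.

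Positions were taken from GENCODE M21 (GRCm38, the build called mm10 in the submitters' processing notes), in which all 9 genes are annotated as protein-coding. The 5 Eif1a-like genes lie on chromosome 12: Gm8300 at 87514316 to 87518266, Gm4027 at 87618869 to 87622955, Gm2016 at 87874072 to 87877859 and Gm2022 at 87895370 to 87895804, all on the plus strand, and Gm5662 at 88270640 to 88274500 on the minus strand. Trim43a (88580891 to 88588819, plus strand), Trim43c (88839164 to 88848190, plus strand) and Trim43b (89084624 to 89092835, minus strand) lie on chromosome 9. Gm2022 is annotated as 435 bases that hold little beyond its coding sequence, whereas exons of the other 4 Eif1a-like genes span 1766 to 1873 bases.

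The coding sequences, of 432 bases in Eif1a and its relatives, are nearly the same from copy to copy. The 5 chromosome 12 genes were 97.2% to 99.1% identical to each other, 93.8% to 95.1% identical to Eif1a and 83.6% to 85.0% identical to Eif1ax. The 60-base stretch with the most differences among the 5 copies (coding bases 231 to 290) is shown 5′ to 3′, with the 6 positions that differ in capitals, because these are letters that can tell reads of the copies apart.
Gm5662 (chr12:88271699-88271758, minus strand): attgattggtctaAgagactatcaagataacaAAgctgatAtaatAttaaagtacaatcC
Gm2016 (chr12:87876815-87876874): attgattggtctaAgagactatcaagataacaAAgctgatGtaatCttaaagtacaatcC
Gm2022 (chr12:87895600-87895659): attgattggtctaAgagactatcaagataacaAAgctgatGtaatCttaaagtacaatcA
Gm4027 (chr12:87621830-87621889): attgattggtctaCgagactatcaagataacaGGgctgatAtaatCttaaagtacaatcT
Gm8300 (chr12:87517127-87517186): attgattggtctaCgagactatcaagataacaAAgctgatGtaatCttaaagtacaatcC

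The Trim43 coding sequences hold 1335 bases in Trim43a and Trim43b and 1338 in Trim43c. Trim43a and Trim43b were 98.2% identical, Trim43b and Trim43c 97.6%, and Trim43a and Trim43c 96.6%. Their first 60 coding bases are identical and are shown for Trim43a (chr9:88582038-88582097), followed by the stretch with the most differences (coding bases 128 to 187), with its 6 differing positions in capitals.
Trim43a start: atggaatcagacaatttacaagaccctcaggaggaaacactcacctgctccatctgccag
Trim43a (chr9:88582165-88582224): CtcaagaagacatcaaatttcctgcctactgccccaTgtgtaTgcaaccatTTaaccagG
Trim43b (chr9:89091492-89091551, minus strand): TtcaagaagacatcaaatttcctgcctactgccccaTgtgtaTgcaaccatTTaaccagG
Trim43c (chr9:88840430-88840489): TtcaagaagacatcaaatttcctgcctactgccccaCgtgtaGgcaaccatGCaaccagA

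Short stretches of these transcripts recur in other genes, so single-copy levels are uncertain. Of all 50-base windows of the transcript, 97.2% in Gm2022, 94.4% in Gm4027, 81.3% in Gm2016, 77.9% in Gm5662 and 26.6% in Gm8300 were also found in the transcript of another gene, mostly another chromosome 12 copy. For Gm4027 all of these shared windows were found in BB287469, whose coding sequence is identical to it, and for Gm2016 and Gm5662 most were shared with each other. Eif1a stood apart, with 4.05% of its 50-base windows and none of its 100-base windows found elsewhere. In the Trim43 genes 42.3% to 48.8% of the 50-base windows and 14.8% to 20.9% of the 100-base windows were found elsewhere, nearly all in the other Trim43 genes. How reads that fit several copies were counted is not given in the sources used here.

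RefSeq promoter windows (GRCm38.p6, 250 bases before to 50 after the start) were at hand for Gm4027 and Trim43a, 1 gene of each family, and are shown because both families rose together at the 2-cell stage. Motifs found on either strand are in capitals. The search took the letters TATAAA of the TATA box, the CCAAT box, the motif of the homeodomain factor Dux, the letters TAATCC bound by bicoid-like homeodomain factors such as Obox proteins, and the letters AAGGTCA bound by nuclear receptors.
Gm4027 (chr12:87618659-87618958): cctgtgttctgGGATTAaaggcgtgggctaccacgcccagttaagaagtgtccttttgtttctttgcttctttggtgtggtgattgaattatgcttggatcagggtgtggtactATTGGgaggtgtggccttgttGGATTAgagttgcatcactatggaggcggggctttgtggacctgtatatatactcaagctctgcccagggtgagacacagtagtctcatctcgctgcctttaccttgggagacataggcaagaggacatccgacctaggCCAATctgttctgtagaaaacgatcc
Trim43a (chr9:88580641-88580940): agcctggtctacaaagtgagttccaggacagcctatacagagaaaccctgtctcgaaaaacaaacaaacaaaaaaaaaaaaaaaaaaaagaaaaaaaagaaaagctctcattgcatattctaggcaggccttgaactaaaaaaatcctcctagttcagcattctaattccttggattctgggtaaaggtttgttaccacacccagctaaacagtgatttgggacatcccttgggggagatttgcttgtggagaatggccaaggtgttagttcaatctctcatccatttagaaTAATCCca

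The Gm4027 window held 2 matches to TAATCC, both on the opposite strand, and 2 to CCAAT, 1 on each strand. The Trim43a window held 1 match to TAATCC and none to CCAAT. Over 32851 promoter windows of the same length, 7.06% held TAATCC, 37.4% CCAAT, 13.6% TATAAA, 4.72% AAGGTCA and 0.207% the Dux motif, and the last 3 had no match in either window. No overlapping motifs were found.

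Read totals recovered from the TPM steps ran from 8.48 to 32.9 M reads in 2-cell embryos and from 30.4 to 85.9 M reads in zygotes, the lowest in ICSI 2-cell replicate 1. The single locus with the highest mean level, Gm23935, took 12.7% to 23.7% of all TPM in ROSI 2-cell embryos, 16.2% to 17.6% in ICSI 2-cell embryos, 13.3% to 14.9% in ROSI zygotes and 8.31% to 10.6% in ICSI zygotes. Summed TPM of 10 oocyte markers such as Zp3 and Gdf9 was 878 to 1061 in ROSI and 1426 to 1430 in ICSI 2-cell embryos, and 5221 to 5969 in ROSI and 6138 to 7212 in ICSI zygotes. Summed TPM of 10 cumulus cell markers reached at most 15.7, in an ICSI zygote library. In bulk samples such as these, a lower level can come from fewer embryos that transcribe a gene or from less RNA in each, and the 2 cannot be told apart.

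All 9 genes were higher at the 2-cell stage than in zygotes after either injection. Across the 6 2-cell libraries they were covered by 47 to 6970 reads, and levels ran from 2.63 TPM for Gm4027 to 257 TPM for Trim43b. Across the 5 zygote libraries they were covered by 1 to 228 reads and none exceeded 4.80 TPM. Every 2-cell library was above every zygote library for each of the 9 genes after ROSI, where 40.2% of all genes tested were placed in this way, and likewise after ICSI, where 34.9% were.

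**Figure D1:**
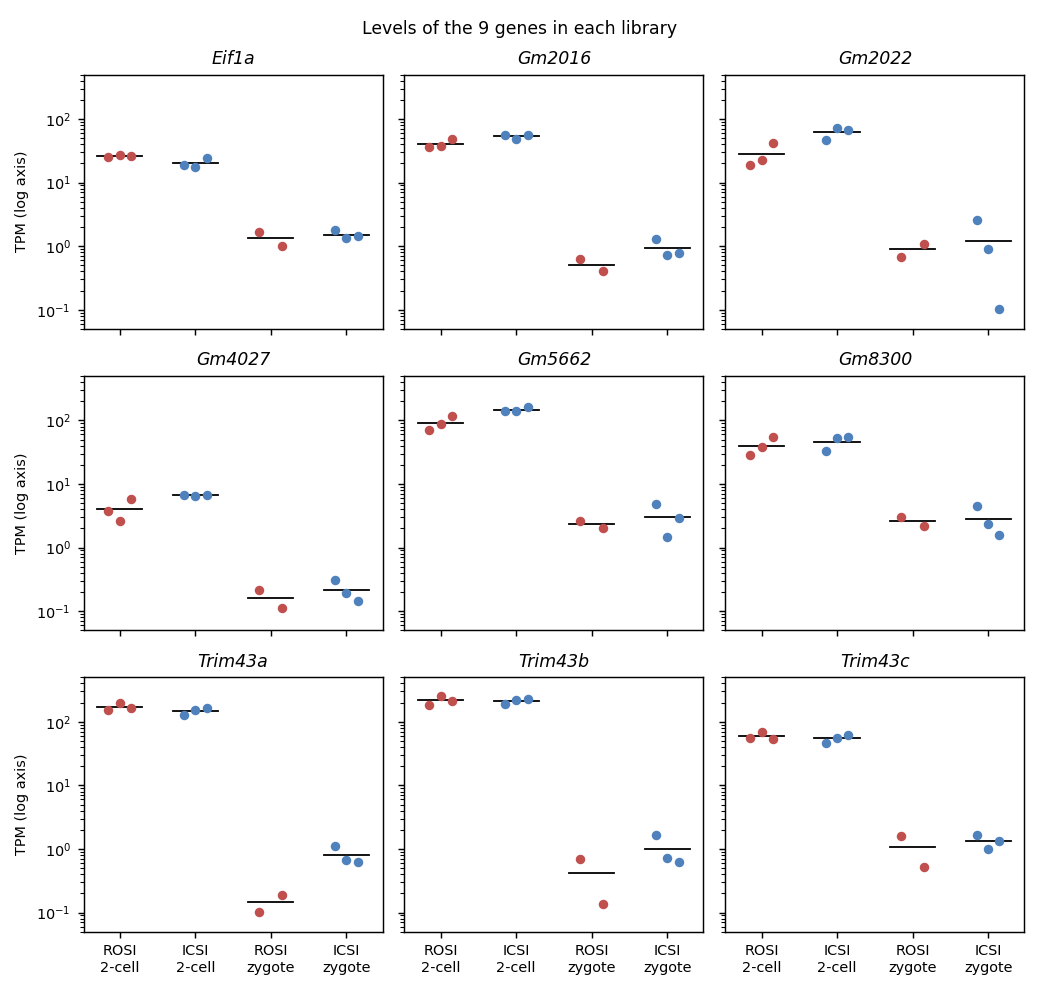
Level of each gene in TPM on a log axis, 1 point per library, with the group mean as a bar. From left to right come ROSI and ICSI 2-cell embryos, then ROSI and ICSI zygotes. All 9 genes are higher in every 2-cell library than in every zygote library, and no gene exceeds 4.80 TPM in a zygote.

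The stage change passed the test for 9 of 9 genes after ROSI and for 9 of 9 after ICSI, always higher at the 2-cell stage (limma on log2(TPM + 1), Benjamini-Hochberg adjusted over all genes, threshold 0.05). Among all genes tested, 35.6% passed as higher and 32.3% as lower after ROSI, and 33% as higher and 35% as lower after ICSI. Because these genes were taken up with earlier results of these data known, the count describes them and does not test the choice. Gm2016, Gm4027, Trim43a and Trim43b met the filter of 1 TPM in 2 libraries only with 2-cell libraries. For them the filter itself favoured a rise. The median log2 stage change over all genes was 0.19 after ROSI and 0.00 after ICSI. It moved to 0.44 and 0.31 after median-ratio scaling and to 0.56 and 0.39 after rescaling over protein-coding genes, so a change of that size is a matter of scale, and all 9 genes changed by more. Of the genes called, 52.4% were higher at the 2-cell stage after ROSI and 48.5% after ICSI, against 60.8% and 59.6% with median-ratio scaling and 62.5% and 60.9% with rescaling over protein-coding genes.

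Eif1a, which lies on chromosome 18 (46597701 to 46616456, plus strand), was measured at 25.1, 27.3 and 26.0 TPM in the 3 ROSI 2-cell libraries and at 1.66 and 0.996 TPM in the 2 ROSI zygote libraries. Levels were 18.9, 17.5 and 24.6 TPM in ICSI 2-cell embryos and 1.76, 1.33 and 1.46 TPM in ICSI zygotes. The stages were fully separated after both injections. Its log2 stage change was 3.56 ± 0.18 (limma SE, adjusted p = 2.6e-08) after ROSI and 3.07 ± 0.16 (limma SE, adjusted p = 2.6e-08) after ICSI. It had the least scatter of the 9 genes in ROSI 2-cell embryos, with a coefficient of variation of 4.19%.

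The X-linked relative Eif1ax ran the other way. It averaged 10.7 ± 2.76 TPM in ROSI 2-cell embryos and 87.0 ± 14.98 TPM in ROSI zygotes (SD, n = 3 and 2), and 13.2 ± 1.01 TPM in ICSI 2-cell embryos and 110 ± 12.2 TPM in ICSI zygotes (SD, n = 3 each). Its log2 stage change was -2.92 ± 0.18 after ROSI and -2.97 ± 0.17 after ICSI (limma SE, adjusted p = 1.6e-07 and 5.1e-08). By mean TPM, Eif1ax was therefore the higher of the pair in zygotes and Eif1a in 2-cell embryos, after both injections. The 2-cell order was not tested and depends on exon length. In ICSI 2-cell libraries Eif1a was covered by 206, 603 and 967 reads and Eif1ax by 260, 898 and 878. In ROSI 2-cell libraries the reads were 778, 773 and 617 for Eif1a and 521, 471 and 603 for Eif1ax.

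Of the 5 named Eif1a-like genes, Gm5662 was the most abundant in 2-cell embryos. It was measured at 71.2, 88.5 and 118 TPM in ROSI 2-cell embryos, against 2.65 and 2.00 TPM in ROSI zygotes. After ICSI, 141, 142 and 161 TPM were found in 2-cell embryos, against 4.80, 1.45 and 2.90 TPM in ICSI zygotes. Its log2 stage change was 4.79 ± 0.31 after ROSI and 5.28 ± 0.28 after ICSI (SE, limma).

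Gm2016, which shares most of its sequence with Gm5662, was lower throughout. It was measured at 36.0, 38.0 and 47.6 TPM in ROSI 2-cell embryos, against 0.620 and 0.406 TPM in ROSI zygotes. Levels were 56.1, 49.2 and 56.2 TPM in ICSI 2-cell embryos, against 1.32, 0.723 and 0.767 TPM in ICSI zygotes. The log2 stage changes, 4.77 ± 0.17 after ROSI and 4.83 ± 0.15 after ICSI, were close to each other.

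Gm2022, the copy annotated with almost no sequence outside its coding region, was measured at 18.8, 22.9 and 42.4 TPM in ROSI 2-cell embryos, against 0.687 and 1.10 TPM in ROSI zygotes. After ICSI, 46.7, 71.1 and 66.5 TPM were found in 2-cell embryos, against 2.58, 0.917 and 0.104 TPM in ICSI zygotes. Its zygote levels rest on very few reads, 3 and 14 in ROSI zygotes and 29, 10 and 1 in ICSI zygotes. Its log2 stage change was 3.86 ± 0.45 after ROSI and 4.97 ± 0.40 after ICSI.

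Gm8300, the one of these 5 copies with the fewest shared windows, was measured at 28.4, 37.5 and 54.8 TPM in ROSI 2-cell embryos, against 2.98 and 2.17 TPM in ROSI zygotes. Levels were 32.6, 52.3 and 54.6 TPM in ICSI 2-cell embryos, against 4.49, 2.36 and 1.57 TPM in ICSI zygotes. Gm4027 was the least abundant of the 5, at 3.76, 2.63 and 5.71 TPM in ROSI 2-cell embryos, against 0.215 and 0.111 TPM in ROSI zygotes. After ICSI, 6.71, 6.44 and 6.73 TPM were found in 2-cell embryos, against 0.314, 0.194 and 0.146 TPM in ICSI zygotes, and its log2 stage change, 2.07 ± 0.23 after ROSI and 2.65 ± 0.21 after ICSI, is understated by the pseudocount of 1.

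**Figure D2:**
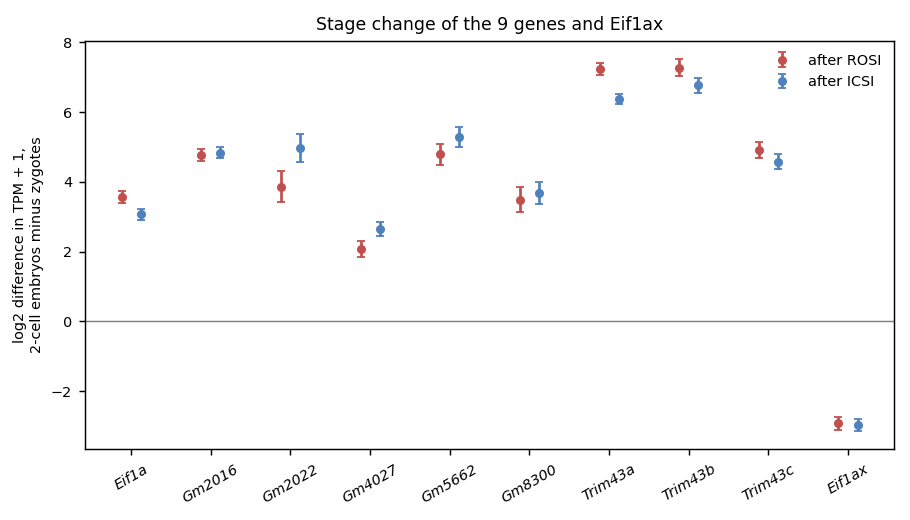
Log2 difference in TPM + 1, 2-cell embryos minus zygotes, for the 9 genes and Eif1ax after ROSI and after ICSI, with standard errors from limma as bars. The 9 genes lie between 2.07 and 7.27, and Eif1ax lies at -2.92 and -2.97.

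Trim43a and Trim43b showed the steepest stage changes of the 9 genes. Trim43b was measured at 180, 257 and 211 TPM in ROSI 2-cell embryos, against 0.704 and 0.136 TPM in ROSI zygotes. Levels were 189, 220 and 226 TPM in ICSI 2-cell embryos, against 1.64, 0.723 and 0.619 TPM in ICSI zygotes. Its log2 stage change was 7.27 ± 0.24 after ROSI and 6.77 ± 0.22 after ICSI (SE, limma).

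Trim43a was measured at 155, 197 and 165 TPM in ROSI 2-cell embryos, against 0.1004 and 0.189 TPM in ROSI zygotes. After ICSI, 127, 152 and 165 TPM were found in 2-cell embryos, against 1.09, 0.663 and 0.614 TPM in ICSI zygotes. Its log2 stage change was 7.23 ± 0.16 after ROSI and 6.38 ± 0.15 after ICSI. Trim43c, with log2 stage changes of 4.92 ± 0.23 after ROSI and 4.58 ± 0.21 after ICSI, was the least abundant of the 3 at the 2-cell stage, at 55.2, 69.8 and 54.0 TPM in ROSI 2-cell embryos, against 1.60 and 0.514 TPM in ROSI zygotes. Levels were 46.6, 56.5 and 61.5 TPM in ICSI 2-cell embryos, against 1.67, 1.00 and 1.32 TPM in ICSI zygotes, and in both kinds of zygote it had the highest mean of the Trim43 genes.

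At the 2-cell stage the Eif1a-like genes of chromosome 12 had lower means after ROSI, Eif1a had a higher one, and the Trim43 genes differed little, but none of the 9 passed the test (limma, adjusted over all genes). Among all genes 9.51% passed, 4.93% higher and 4.58% lower after ROSI. At an unadjusted p under 0.05 there were 5 of the 9 members and 5857 of the 21938 genes tested. Libraries did not overlap for 5 of the 9, of which 4 were lower and 1 was higher after ROSI, against 11.8% of all genes lower and 15.4% higher.

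Gm2022 showed the lowest ratio of the 9 genes, with means of 28.0 ± 12.6 TPM in ROSI and 61.4 ± 12.9 TPM in ICSI 2-cell embryos (SD, n = 3 each), a log2 difference of -1.17 ± 0.40 (limma SE, adjusted p = 0.0949). Gm5662 averaged 92.5 ± 23.6 TPM in ROSI and 148 ± 11.4 TPM in ICSI 2-cell embryos, a log2 difference of -0.70 ± 0.28 (limma adjusted p = 0.138). Gm4027 averaged 4.03 ± 1.56 TPM in ROSI and 6.63 ± 0.159 TPM in ICSI 2-cell embryos, a log2 difference of -0.64 ± 0.21 (limma adjusted p = 0.0805). In these 3 genes and in Gm2016 (log2 difference -0.41 ± 0.15, limma adjusted p = 0.121) every ROSI library lay below every ICSI library. Gm8300 overlapped between the groups, with a log2 difference of -0.22 ± 0.31 (limma adjusted p = 0.706).

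Without ROSI 2-cell replicate 3, the ROSI library with the highest level of all 5 of these genes, Gm2022 passed at -1.50 (limma adjusted p = 0.0497, range 0.0497 to 0.358 over its 17 alternatives) and Gm4027 at -0.87 (limma adjusted p = 0.0192, range 0.0192 to 0.221). ROSI 2-cell replicate 1 had the lowest level of Gm2016, Gm2022, Gm5662 and Gm8300 and also the largest share of TPM taken by Gm23935, 23.7%, against 17.7% and 12.7% in the other ROSI 2-cell libraries. Summed over the 5 genes, levels were 158, 189 and 269 TPM in ROSI 2-cell embryos and 283, 321 and 345 TPM in ICSI 2-cell embryos, a ratio of means of 0.650. The sums after rescaling over protein-coding genes averaged 424 TPM in ROSI and 641 TPM in ICSI 2-cell embryos, and the median log2 difference of the 5 genes was then -0.66, against -0.64 as deposited.

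Eif1a averaged 26.1 ± 1.09 TPM in ROSI and 20.3 ± 3.77 TPM in ICSI 2-cell embryos (SD, n = 3 each), a log2 difference of 0.36 ± 0.16 (limma SE, adjusted p = 0.174). Every ROSI library lay above every ICSI library, and the difference did not pass under any of its 17 alternatives. Trim43a averaged 172 ± 21.8 TPM in ROSI and 148 ± 19.5 TPM in ICSI 2-cell embryos, a log2 difference of 0.22 ± 0.15 (limma adjusted p = 0.368). Trim43b differed by 0.02 ± 0.22 and Trim43c by 0.12 ± 0.21 on the log2 scale, and all 3 Trim43 genes overlapped between ROSI and ICSI. Summed over the 3 genes, levels were 390, 524 and 430 TPM in ROSI and 363, 428 and 452 TPM in ICSI 2-cell embryos.

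**Figure D3:**
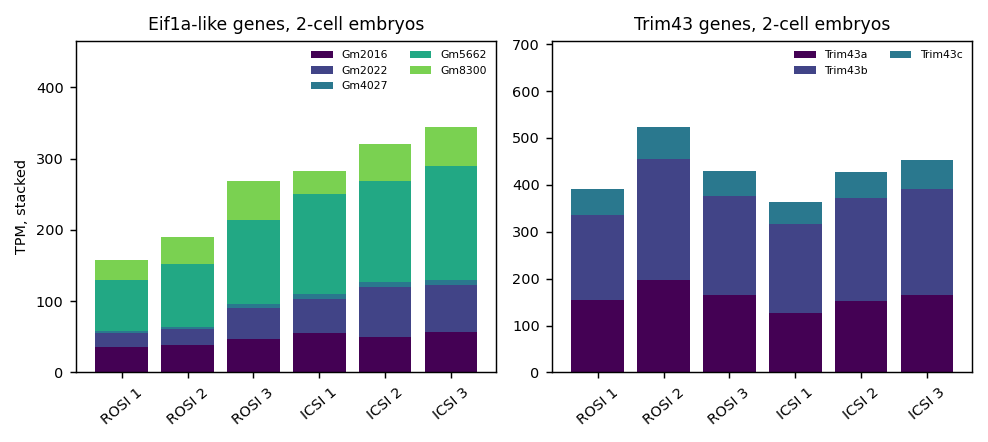
TPM of the 5 Eif1a-like genes (left) and of the 3 Trim43 genes (right) stacked for each 2-cell library, with ROSI libraries left of ICSI libraries. The Eif1a-like sums run from 158 to 269 TPM in ROSI and from 283 to 345 TPM in ICSI embryos, while the Trim43 sums overlap.

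Markers of round spermatids moved with the injection method. Of 10 listed genes 8 were tested, and 4 were higher and none lower after ROSI both in 2-cell embryos, where 4.93% of all genes passed as higher, and in zygotes, where 0.114% did. Their summed TPM was 32.6 to 50.7 in ROSI and 9.38 to 14.7 in ICSI 2-cell embryos, where Tnp2 and Smcp were listed at 0 after ICSI, and 67.6 to 124 in ROSI and 22.4 to 28.8 in ICSI zygotes. The summed TPM of a list of 5 other testis genes (Sox9, Cyp17a1, Insl3, Stra8 and Uchl1) did not move the same way. It was 195 to 257 in ROSI and 335 to 371 in ICSI 2-cell embryos, and 1324 to 1376 in ROSI and 1362 to 1528 in ICSI zygotes. Like the sum of the oocyte markers, it was far higher in zygotes. The sum was not split by gene and can be carried by 1 of them, so it is no measure of testis RNA. Of the 3 genes of this list that were tested 1 passed at the 2-cell stage, Uchl1, at a log2 difference of -0.75 ± 0.11 (limma adjusted p = 0.00558). The 2 others did not pass and lay above 0, up to 0.31, the side of the round spermatid markers, and the median of the 3 was 0.29. Oocyte markers were also lower after ROSI at the 2-cell stage, with 5 of 10 passing, against 4.58% of all genes. The part of these marker lists in the differences of the Eif1a-like genes was not tested.

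The family is larger than the 5 named genes. Of a list of 9 other genes taken as Eif1a-like by symbol, all tested, 4 fell and none rose in ROSI against ICSI 2-cell embryos (Gm5039, Gm2046, Gm2035 and BB287469), where 4.58% of all genes fell. All 9 had a difference below 0. At the 2-cell stage 7 of them rose and 2, Eif1ax and Gm2042, fell after both injections. Gm2042 is no close relative by sequence. Its coding sequence holds 918 bases and is 35.7% identical to that of Eif1a, taken over the longer of the 2. It is counted again among the chromosome 12 neighbours below. Gm2046 averaged 23.9 ± 6.67 TPM in ROSI and 57.6 ± 1.51 TPM in ICSI 2-cell embryos, a log2 difference of -1.27 ± 0.28 (limma SE, adjusted p = 0.0229). Gm2056 and Gm21319 had the lowest p of the list for the stage change after ICSI, at 5.99 and 4.24 on the log2 scale (limma adjusted p = 6.2e-09 and 6.9e-09).

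A search of the annotation gave more chromosome 12 copies. By coding sequence, at least 90% identical to a member, 11 further copies were annotated there, and 10 of them were in the table and tested. This set, chosen after values were seen, shares 6 genes with the list above. It leaves out Eif1ax, Gm2042 and Gm2046, of which Gm2046 has no entry under that symbol in GENCODE M21. All 10 rose at the 2-cell stage after both injections. Against ICSI 2-cell embryos, 5 of the 10 fell and none rose in ROSI 2-cell embryos, where 4.58% of all genes fell, and all 10 had a lower mean, with ratios of means between 0.387 and 0.866. Copies with shared stretches can draw on the same reads. Neither these counts nor those of the list above are therefore counts of independent genes. Gm2056, with 106 ± 34.3 TPM, had a higher mean than Gm5662 in ROSI 2-cell embryos, and Gm8332, with 161 ± 24.6 TPM, had a higher mean than Gm5662 in ICSI 2-cell embryos (SD). This order was not tested and depends on annotated exon length. In the ROSI 2-cell libraries Gm2056 was covered by 333, 463 and 500 reads, fewer than the 1412, 1604 and 1788 of Gm5662.

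Gm5039 averaged 42.6 ± 9.15 TPM in ROSI and 105 ± 2.63 TPM in ICSI 2-cell embryos, a log2 difference of -1.30 ± 0.21 (limma SE, adjusted p = 0.00757). Gm6803 differed by -1.39 ± 0.32 (limma adjusted p = 0.0245), Gm2035 by -0.90 ± 0.21 (limma adjusted p = 0.0249) and Gm21936 by -0.88 ± 0.23 (limma adjusted p = 0.0375). BB287469, the copy identical to Gm4027 in its coding sequence, differed by -0.93 ± 0.21 (limma adjusted p = 0.0249). The other 5, Gm16368, Gm2056, Gm2075, Gm21319 and Gm8332, did not pass. The count of copies that passed fell to 1 without ROSI 2-cell replicate 2, without ICSI 2-cell replicate 1 and without ICSI 2-cell replicate 2, was 3 without ICSI 2-cell replicate 3 and was 6 without ROSI 2-cell replicate 3. The count over all genes moved too, from 2087 to between 947 and 2197 with 1 library left out. In all of these fits, and under both other scalings, all 10 copies kept a difference below 0.

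**Figure D4:**
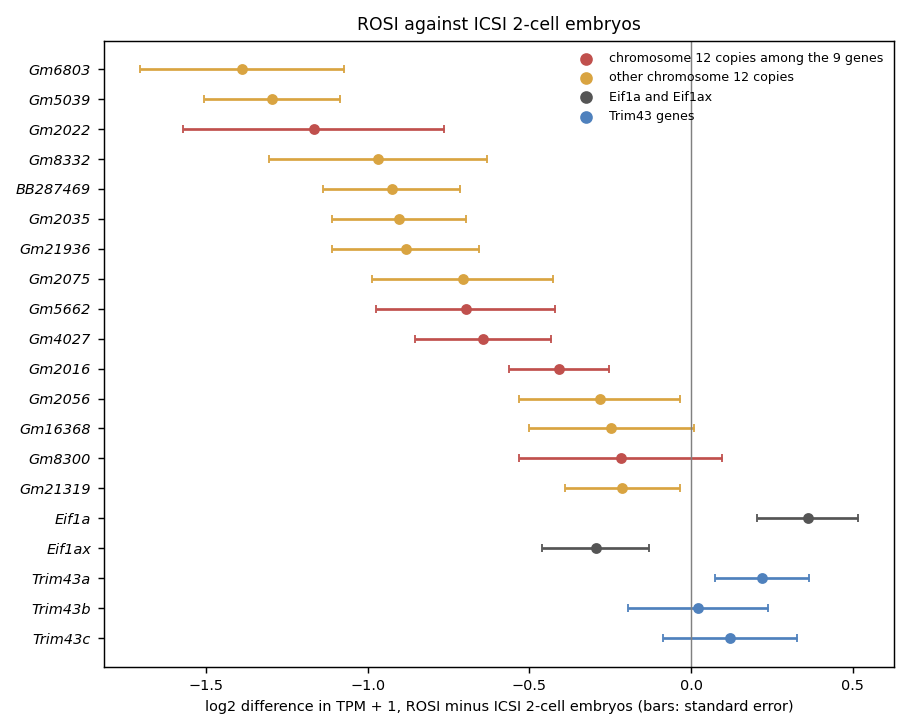
Log2 difference in TPM + 1, ROSI minus ICSI 2-cell embryos, for the 15 chromosome 12 copies known by coding sequence, ordered by size, followed by Eif1a, Eif1ax and the Trim43 genes, with standard errors from limma as bars. All 15 copies lie below 0, between -1.39 for Gm6803 and -0.21 for Gm21319, while Eif1a lies at 0.36. Copies can share reads, so the 15 are not independent.

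In zygotes none of the 9 genes passed between ROSI and ICSI (limma, adjusted over all genes), and among all genes 0.146% passed. At an unadjusted p under 0.05 there were 1 of the 9, Trim43a, and 1392 of the 21938 genes tested. Trim43a was covered by 2 and 11 reads in ROSI zygotes and by 56, 33 and 27 reads in ICSI zygotes, so every ROSI library was lower. Its log2 difference was -0.64 ± 0.16 (limma SE, adjusted p = 0.232) with a pseudocount of 1 and -1.85 (limma adjusted p = 0.0163, range 0.0163 to 0.901 over its 17 alternatives) with a pseudocount of 0.1. Gm2016 was also lower in every ROSI zygote library, with means of 0.513 TPM in ROSI and 0.935 TPM in ICSI zygotes, a placement found for 19.4% of all genes. The other 7 genes overlapped.

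The stage change after ROSI did not differ from that after ICSI for any of the 9 genes by the test of the difference itself (limma, adjusted over all genes), which 0.0182% of all genes passed. At an unadjusted p under 0.05 there were 1 of the 9 and 3303 of the 21938 genes tested. The nearest was Trim43a, whose log2 stage change was larger after ROSI by 0.86 ± 0.22 (limma SE, adjusted p = 0.131). The 5 Eif1a-like genes had differences from -1.11 for Gm2022 to -0.06 for Gm2016, and Eif1a had one of 0.48 ± 0.24. All genes together had a median of 0.10, and of the 4 genes called 75.0% were higher, against 52.4% of 147 with median-ratio scaling and 64.9% of 97 with rescaling over protein-coding genes.

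The order of the 9 genes by mean TPM changed between the stages. In ROSI 2-cell embryos it was Trim43b, Trim43a, Gm5662, Trim43c, Gm2016, Gm8300, Gm2022, Eif1a and Gm4027, of which neighbours overlapped for Trim43b and Trim43a and from Gm2016 through Eif1a. In ICSI 2-cell embryos it was Trim43b, Trim43a, Gm5662, Gm2022, Trim43c, Gm2016, Gm8300, Eif1a and Gm4027, with overlap between Trim43a and Gm5662 and from Gm2022 through Gm8300. In ROSI zygotes Gm8300 (2.57 TPM) and Gm5662 (2.33 TPM) led and Trim43a (0.145 TPM) was last. In ICSI zygotes Gm5662 (3.05 TPM) and Gm8300 (2.81 TPM) led and Gm4027 (0.218 TPM) was last.

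Among the 5 named Eif1a-like genes Gm5662 held the largest share at the 2-cell stage. It made up 45.2% ± 1.40 of their summed TPM in ROSI and 46.9% ± 2.81 in ICSI 2-cell embryos (SD, n = 3 each). Gm2022 made up 13.2% ± 2.21 in ROSI and 19.3% ± 2.82 in ICSI 2-cell embryos, and Gm8300 19.4% ± 1.28 in ROSI and 14.5% ± 2.64 in ICSI 2-cell embryos. Neither gene's shares overlapped between the groups, while those of Gm5662, Gm2016 and Gm4027 did. Among the Trim43 genes, Trim43c made up 13.3% ± 0.778 in ROSI 2-cell embryos and 63.9% ± 3.72 in ROSI zygotes, and 13.2% ± 0.375 in ICSI 2-cell embryos and 43.8% ± 7.03 in ICSI zygotes. Trim43a made up 38.5% ± 1.06 in ROSI and 35.7% ± 0.811 in ICSI 2-cell embryos, and Trim43b 48.1% ± 1.65 in ROSI and 51.1% ± 1.18 in ICSI 2-cell embryos. Shares of Trim43a and Trim43b did not overlap between the groups either, while those of Trim43c did. None of these shares was tested, and shares within other families were not computed.

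Genes with the most similar profile over the 11 libraries were found by the root mean square difference between centred log2(TPM + 1) profiles, over all 21938 genes. The nearest to the mean of the 5 Eif1a-like genes were Pramef25 (0.21), the chromosome 12 copy Gm21319 (0.21), Glul (glutamine synthetase, 0.23), Tox4 (0.24) and Gm21761 (0.24). The 5 genes themselves lay farther from their mean, from 0.31 for Gm8300 to 0.86 for Gm4027, so likeness to the mean is not likeness to each gene. Pramef25 averaged 40.1 TPM in ROSI and 72.0 TPM in ICSI 2-cell embryos, and Gm21761 averaged 33.7 TPM in ROSI and 47.4 TPM in ICSI 2-cell embryos. The nearest to the mean of the 3 Trim43 genes were Ubtfl1 (0.12), Mta2 (a subunit of the NuRD chromatin complex, 0.15), Timd2 (0.19), Zscan5b (0.20) and Spic (an ETS family transcription factor, 0.22). Here too the 3 genes lay farther from their mean, from 0.33 for Trim43a to 0.72 for Trim43c. Ubtfl1 averaged 111 TPM in ROSI and 108 TPM in ICSI 2-cell embryos, and 0.458 TPM in ROSI and 0.773 TPM in ICSI zygotes.

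A list of 31 other genes of the 2-cell activation programme, the Zscan4 and Tdpoz families among them, was read beside the members. At the 2-cell stage 9 of the 31 fell and 2 rose in ROSI against ICSI embryos, where 4.58% of all genes fell and 4.93% rose, and the median log2 difference was -0.51, against 0.04 over all genes. AF067061 averaged 16.4 ± 4.26 TPM in ROSI and 36.1 ± 2.43 TPM in ICSI 2-cell embryos (log2 difference -1.12 ± 0.17, limma adjusted p = 0.00584), and Gm12794 averaged 31.4 ± 6.16 TPM in ROSI and 62.5 ± 1.89 TPM in ICSI 2-cell embryos (log2 difference -0.99 ± 0.16, limma adjusted p = 0.00705). Tdpoz2, a gene with a TRAF-like and a POZ domain, averaged 65.6 TPM in ROSI and 64.5 TPM in ICSI 2-cell embryos, and Tdpoz4, listed at 0 in all zygotes, averaged 81.2 TPM in ROSI and 66.7 TPM in ICSI 2-cell embryos. Between stages, 25 rose and 2 fell after ROSI, where 35.6% of all genes rose and 32.3% fell, and 27 rose and 3 fell after ICSI, where 33% rose and 35% fell.

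Of 47 tested translation initiation factors, 21 rose and 15 fell at the 2-cell stage after ROSI (35.6% and 32.3% of all genes), and 18 rose and 17 fell after ICSI (33% and 35% of all genes). Eif3a, a core subunit of the initiation complex eIF3, averaged 530 TPM in ROSI 2-cell embryos and 63.2 TPM in ROSI zygotes, and 434 TPM in ICSI 2-cell embryos and 70.8 TPM in ICSI zygotes. Eif1b, which encodes a relative of the scanning factor eIF1, averaged 63.4 TPM in ROSI 2-cell embryos and 754 TPM in ROSI zygotes, and 59.2 TPM in ICSI 2-cell embryos and 778 TPM in ICSI zygotes. Between ROSI and ICSI 2-cell embryos 4 rose and 1 fell (4.93% and 4.58% of all genes), Eif3l, another eIF3 subunit, by a log2 difference of 1.12 ± 0.15 (limma adjusted p = 0.00425) and the oocyte cap-binding protein gene Eif4e1b by -0.80 ± 0.13 (limma adjusted p = 0.00704).

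Of 44 other Trim genes tested, 14 rose and 18 fell at the 2-cell stage after ROSI (35.6% and 32.3% of all genes), and 13 rose and 23 fell after ICSI (33% and 35% of all genes). The ubiquitin ligase gene Trim27 averaged 19.8 TPM in ROSI 2-cell embryos and 164 TPM in ROSI zygotes, and 22.7 TPM in ICSI 2-cell embryos and 155 TPM in ICSI zygotes. The chromatin reader gene Trim24 averaged 43.4 TPM in ROSI 2-cell embryos and 136 TPM in ROSI zygotes, and 43.8 TPM in ICSI 2-cell embryos and 158 TPM in ICSI zygotes. Between ROSI and ICSI 2-cell embryos 4 rose and 1 fell (4.93% and 4.58% of all genes), with Trim39 at a log2 difference of 0.71 ± 0.13 (limma adjusted p = 0.0125) and Trim60 at -0.97 ± 0.18 (limma adjusted p = 0.0131).

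Other genes in the same stretches of the genome did not all share the stage change. Between the outermost chromosome 12 copies 61 other genes are annotated, but only 8 were in the expression table, Gm2042 among them. All 8 were tested, and the rest cannot be judged here. At the 2-cell stage 4 of the 8 rose and 4 fell after ROSI (35.6% and 32.3% of all genes), and 4 rose and 3 fell after ICSI (33% and 35% of all genes). Gm16381 changed most, with 100.1 ± 9.15 TPM in ROSI 2-cell embryos and listed at 0 in both ROSI zygote libraries, and 149 ± 13.5 TPM in ICSI 2-cell embryos and 0.922 ± 0.700 TPM in ICSI zygotes (SD). Gm10436 was the most abundant of the 8, with 336 TPM in ROSI 2-cell embryos and 963 TPM in ROSI zygotes, and 389 TPM in ICSI 2-cell embryos and 945 TPM in ICSI zygotes. Oog1, an oocyte gene, averaged 77.5 TPM in ROSI 2-cell embryos and 154 TPM in ROSI zygotes, and 94.3 TPM in ICSI 2-cell embryos and 151 TPM in ICSI zygotes.

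Between ROSI and ICSI 2-cell embryos all 8 of these neighbours lay below 0, from -0.66 to -0.09 on the log2 scale, where the median over all genes was 0.04. The Eif1a-like copies lay on the same side, and how many of all genes did was not counted. None of the 8 passed (limma, adjusted over all genes), where 9.51% of all genes passed. An unadjusted p under 0.05 was found for 2 of the 8 and for 5857 of the 21938 genes tested. Between Trim43a and Trim43b on chromosome 9, 23 other genes are annotated and 9 of them were tested. At the 2-cell stage 6 of the 9 rose and 1 fell after ROSI (35.6% and 32.3% of all genes), and 5 rose and 1 fell after ICSI (33% and 35% of all genes). Gm24463, listed at 0 in every zygote library, averaged 53.7 ± 10.6 TPM in ROSI and 39.2 ± 10.6 TPM in ICSI 2-cell embryos (SD, n = 3 each). Between ROSI and ICSI 2-cell embryos 7 of the 9 lay above 0 and 2 below, from -0.13 to 0.46, and none passed (limma, adjusted over all genes). An unadjusted p under 0.05 was found for 1 of these 9, against the same 5857 of 21938 genes.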

How the data were processed

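TPM values of all genes were deposited by the authors for 11 libraries. The submitters' processing notes name fastp, Bowtie2, STAR 2.7.4a, featureCounts and the mm10 build, with no settings. The members and gene lists were chosen with earlier results of these data known. The 21938 genes that reached 1 TPM in 2 or more libraries were fitted with limma 3.58.1 (R 4.3.3; trend, 4 group means, log2(TPM + 1), Benjamini-Hochberg over all of them, threshold 0.05) and the fit was checked on simulated data. The pseudocount of 1 understates fold changes of low genes. The genes named are all 9 members, the 5 nearest profiles per family, and, from the lists of 2-cell activation genes, initiation factors, other Trim genes and other Eif1a-like genes, the 2 lowest p between ROSI and ICSI 2-cell embryos and the 2 lowest for the stage change after ICSI. The copies found by coding sequence and the neighbouring genes, with the examples named from them, were chosen after the values were seen.

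TPM multiplied by GENCODE M21 exon length gave whole reads, within 0.01, for 85.1% to 86.6% of values per library. For Eif1a the length that gave whole reads was 2879 bases. Those read numbers cover counting error only. Alternatives were a pseudocount of 0.1, no filter, median-ratio scaling, a replicate block, groups fitted alone, each library left out and, added after seeing the data, rescaling over protein-coding genes.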

Additional observations from a re-analysis of the deposited data

How the results depend on the processing

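All 9 members passed the stage tests after ROSI and after ICSI under each of the 17 alternatives. The number of members that passed between ROSI and ICSI zygotes was 1 with a pseudocount of 0.1 (Trim43a), and over fits that left out 1 library it was 0 to 2 between 2-cell embryos and 0 in zygotes and for the difference of stage changes. The number of all genes called in zygotes, 32, was 64 with a pseudocount of 0.1, 87 without a filter, 4 with the replicate block, 0 with the groups fitted alone and 4 to 71 with 1 library left out. Between 2-cell embryos, 2087 genes became 1366 without a filter, 3308 with median-ratio scaling, 85 with the groups fitted alone and 947 to 2197 with 1 library left out. For the difference of stage changes, 4 became 13, 147, 97 and 0 without a filter, with median-ratio scaling, with rescaling over protein-coding genes and with the block, and 0 to 37 with 1 library left out. The number of other chromosome 12 copies called, 5, became 3 with a pseudocount of 0.1, 1 without a filter, 1 with the groups fitted alone and 1 to 6 with 1 library left out. The cause was not tested.

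The labels do not say that replicate numbers pair libraries, so the numbers were not read as pairs. After the group mean of each gene was taken off log2(TPM + 1), what remained in same-numbered libraries was correlated. The correlations were 0.33 and 0.22 in zygotes and -0.04 to 0.06 in the other comparisons. What remains in the 2 ROSI zygote libraries is exactly opposite, so the 2 zygote values are not independent. Libraries with unlike numbers were not compared, so a shared replicate effect in zygotes cannot be judged. With the replicate block 0 members passed between ROSI and ICSI 2-cell embryos and 9 for each stage change. Members that did not pass changed sign in some fits. Between ROSI and ICSI zygotes, Gm2022 was 0.24 with a pseudocount of 0.1 and 0.0135 with protein-coding rescaling, and Gm8300 was 0.045 with median-ratio scaling, 0.050 with protein-coding rescaling and 0.015 with the block. For the difference of stage changes, Gm2016 was 0.32 with a pseudocount of 0.1 and 0.0018 with protein-coding rescaling. With 1 library left out, zygote differences ran from -0.33 to 0.083 for Eif1a, -0.48 to 0.37 for Gm2022, -0.52 to 0.10 for Gm5662, -0.28 to 0.27 for Gm8300 and -0.61 to 0.17 for Trim43c. The 2-cell differences ran from -0.46 to 0.0013 for Gm8300 and -0.11 to 0.14 for Trim43b, and the differences of stage changes from -0.20 to 0.040 for Gm2016, -0.49 to 0.058 for Gm8300 and -0.049 to 0.73 for Trim43c. In zygotes, whose libraries were the deeper ones, members were low and some values rest on as few as 1 read.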
